A study of Mus musculus with 36 samples.

Results

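The dependence of the cholesterol crystal response of macrophages on the liver X receptors (LXRs) was measured as a difference of 2 differences. The crystal effect in cells that lacked both receptors, LXRα and LXRβ (dko), was set against the crystal effect in wild-type cells (wt), without cyclodextrin (CD, a ring-shaped sugar able to take up cholesterol). It rests on 18 of the 36 Illumina bead arrays of the study. Every gene with a probe above background on at least 4 of the 36 arrays was included, so that 14388 genes were tested. The 4 groups were dko cells loaded with cholesterol crystals for 3 h (4 arrays), dko cells left untreated (4 arrays), wt cells loaded for 3 h (5 arrays) and wt cells left untreated (5 arrays). All cells were macrophages grown from the bone marrow of C57BL/6 mice of 2 to 5 months with M-CSF, the growth factor of the macrophage lineage. The other 18 arrays are the same 4 groups with 10 mM CD for 4 h, and they serve here as a second measurement of the difference. The study asked whether CD acts on macrophage transcription through LXRs. The receptors were missing from the mice and were not removed in culture, and how the alleles were made is not stated in the labels. Arrays carry the numbers 1 to 5 in each wt group and 6 to 9 in each dko group, and no label says what a number stands for, so p-values measure the spread between arrays, which may in part be technical.

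LXRs are nuclear receptors that bind DNA as partners of the retinoid X receptor and are switched on by oxysterols and by intermediates of cholesterol synthesis. In macrophages that take up cholesterol they raise transporters that export it and, through SREBP1, genes of fatty acid synthesis and desaturation. Without an activating sterol the receptors can hold some of the same genes down. A second sensor, SREBP2, works in the opposite sense: sterol in the endoplasmic reticulum keeps it from entering the nucleus, and genes of cholesterol synthesis and uptake fall.

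The arrays were of similar brightness, with medians of 84.0 to 128 intensity units before normalization and 15342 to 17892 probes above background on the 18 arrays. Levels are given below as normalized log2 intensity, and a gene is called where limma's moderated test gave an adjusted p under 0.05 over all genes. No called difference between genotypes was found for the probes of the targeted genes. Nr1h3 (LXRα) averaged 9.79 ± 0.14 in loaded and 9.81 ± 0.14 in untreated dko cells (SD, n = 4 each), against 10.07 ± 0.18 in loaded and 9.52 ± 0.29 in untreated wt cells (n = 5 each). Nr1h2 (LXRβ) averaged 9.09 ± 0.14 in loaded and 9.36 ± 0.14 in untreated dko cells, against 8.70 ± 0.48 in loaded and 8.89 ± 0.33 in untreated wt cells. Where these probes lie relative to the deleted parts is not given, so they do not check the labels. All 10 macrophage markers were above background on all 18 arrays. The summed level of 8 stromal markers was 11.97 to 13.40 in loaded and 12.43 to 13.49 in untreated dko cells, against 10.20 to 12.47 in loaded and 10.40 to 12.47 in untreated wt cells. The summed level of the 5 neutrophil markers that passed the filter, of 10, was 7.54 to 9.78 in loaded dko cells, against 7.03 to 7.31 in loaded wt cells with no overlap. It was 7.46 to 9.66 in untreated dko and 7.03 to 7.58 in untreated wt cells. The part of either marker list in the results below was not tested. In such bulk samples, fewer cells of a type and less RNA per cell cannot be told apart.

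The wt arrays fell into 2 sets. Replicates 1 to 3 of wt sat on 2 slides that held no dko array and gave signal for Xist, the RNA that coats the inactive X chromosome of female cells. Replicates 4 and 5 of wt shared 4 slides with all dko arrays and gave no Xist signal, and on all arrays without Xist signal the lowest level of the Y-linked gene Eif2s3y was 8.996, against a highest level of 4.61 on those with it. In wt cells, slide, number and Xist signal therefore cannot be told apart. Of the 4 dko arrays of each group 2 gave Xist signal, and for each of the 4 dko numbers the arrays of different groups did not share one Xist state. The differences of the called genes and of those that moved most are therefore also given with wt replicates 4 and 5 alone against dko, with wt replicates 1 to 3 alone against dko, and within the arrays with and without Xist signal. The last pair of these was chosen after the data had been seen. Values printed without such a split come from all 18 arrays.

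The crystal effect differed between genotypes for 6 genes, all lower in dko cells, out of 14388 tested (0.0417%). At an unadjusted p under 0.05 the count was 670. They were Abcg1, Eepd1 and Gramd1b, which act in cholesterol export or transfer, the desaturases Scd1 and Scd2, and LOC100043671, a predicted gene under the file's own name. In all 6 the 4 loaded dko arrays lay below the 5 loaded wt arrays, and for Scd1 the nearest arrays of both groups read 7.16. In untreated cells the order was the other way round for Abcg1, Eepd1, Scd1, Scd2 and LOC100043671, each with all dko arrays above all wt arrays. Only 6 of the 14388 genes (0.0417%) had all dko arrays above wt when untreated and below wt when loaded, and they were these 5 and Gngt2, which was not called. The opposite crossing was seen for 1 gene (0.00695%), Lca5, with a difference of 0.58 that was not called (adjusted p = 0.521).

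**Figure D1:**
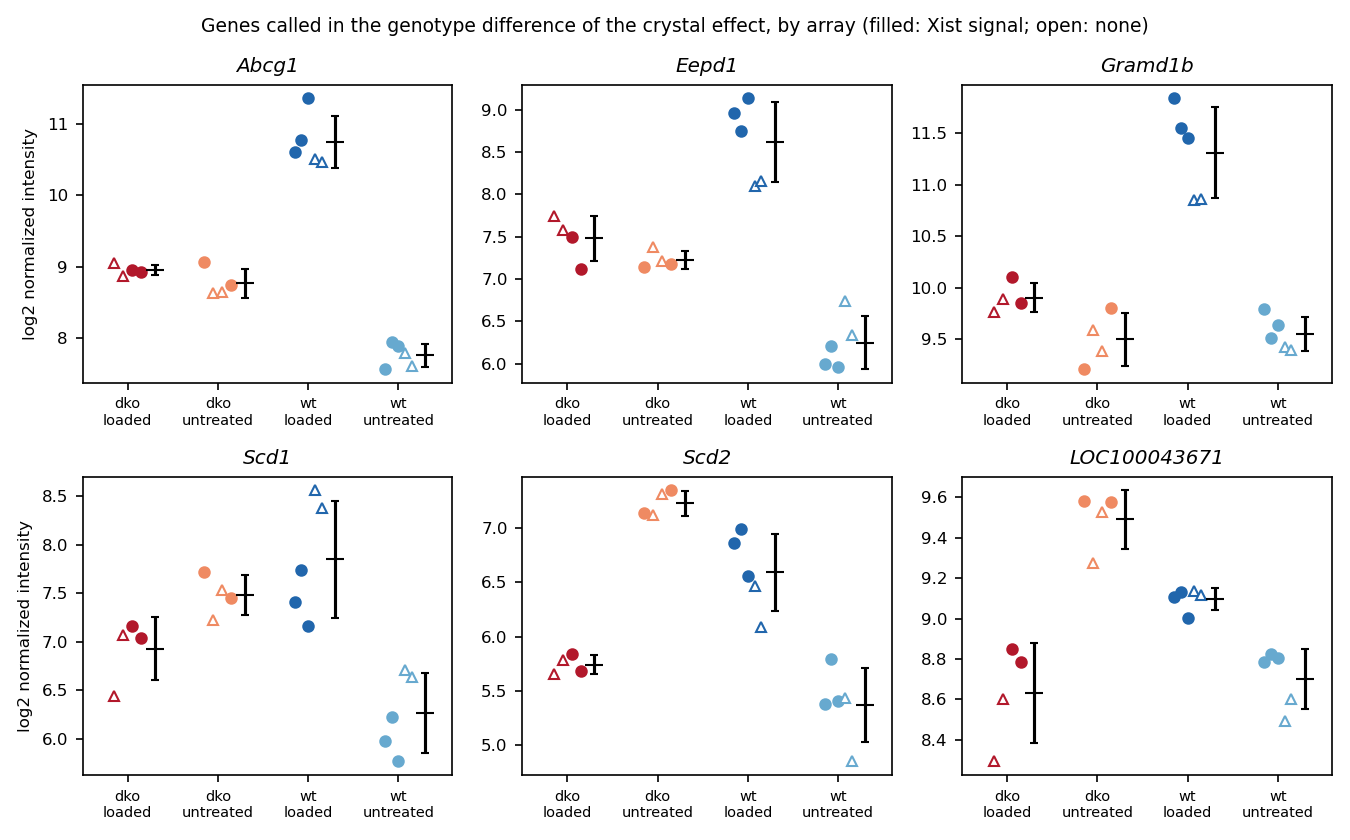
Normalized log2 intensity (y axis) of the 6 called genes on each of the 18 arrays, with dko loaded, dko untreated, wt loaded and wt untreated from left to right in each panel. Filled circles are arrays with Xist signal, open triangles arrays without, and the bar beside each group is the mean ± SD. In all 6 genes every loaded wt array lies above every untreated wt array, and in Scd1, Scd2 and LOC100043671 every loaded dko array lies below every untreated dko array.

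Abcg1 encodes a transporter that moves cholesterol to lipoproteins and is a classical LXR target. Its level was 9.05, 8.87, 8.95 and 8.93 on the loaded dko arrays and 9.06, 8.62, 8.64 and 8.74 on the untreated ones. In wt cells it was 10.61, 10.78, 11.36, 10.51 and 10.46 on the loaded arrays and 7.56, 7.94, 7.88, 7.78 and 7.61 on the untreated ones. The loaded and untreated wt groups did not overlap, while the dko groups overlapped and lay between them. The crystal effect of Abcg1 was 0.18 in dko cells (log2, SE 0.29, adjusted p = 0.999) and 2.99 in wt cells (SE 0.26, adjusted p = 1.88e-09), a 7.94-fold rise in wt. The difference was -2.81 (SE 0.39, adjusted p = 5.015e-04). It was -2.61 against wt replicates 4 and 5 and -2.94 against wt replicates 1 to 3.

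Eepd1, an LXR target that in human and mouse macrophages favours ABCA1 at the plasma membrane, showed the same order of groups. Its level was 7.74, 7.58, 7.49 and 7.12 on loaded and 7.15, 7.38, 7.22 and 7.17 on untreated dko arrays, against 8.96, 8.75, 9.14, 8.10 and 8.15 on loaded and 5.99, 6.21, 5.97, 6.74 and 6.34 on untreated wt arrays. The dko groups overlapped and the wt groups did not. The effect was 0.25 in dko cells (SE 0.24, adjusted p = 0.952) and 2.37 in wt cells (SE 0.22, adjusted p = 5.74e-09), with a difference of -2.11 (SE 0.33, adjusted p = 0.00216). The difference was -1.33 against wt replicates 4 and 5, where the loaded wt arrays were lowest and the untreated ones highest, and -2.64 against wt replicates 1 to 3.

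Gramd1b encodes a protein of the endoplasmic reticulum that carries cholesterol away from the plasma membrane. It read 9.77, 9.89, 10.10 and 9.85 on loaded and 9.21, 9.59, 9.38 and 9.81 on untreated dko arrays. On wt arrays it read 11.84, 11.55, 11.45, 10.85 and 10.86 when loaded and 9.79, 9.51, 9.63, 9.42 and 9.40 when untreated. Here the untreated groups overlapped and only the loaded wt arrays stood apart. The effect was 0.40 in dko cells (SE 0.18, adjusted p = 0.56) and 1.76 in wt cells (SE 0.16, adjusted p = 6.10e-09), and the difference was -1.36 (SE 0.25, adjusted p = 0.0126). A second Gramd1b probe above background gave -1.39, and another was above background on 1 of the 18 arrays. The call was lost without loaded dko replicate 6 (-1.31) or untreated dko replicate 9 (-1.25).

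The 2 desaturases introduce a double bond into saturated fatty acids and are induced by LXR both directly and through SREBP1. Scd1 was at 6.44, 7.07, 7.16 and 7.04 on loaded and 7.72, 7.23, 7.54 and 7.45 on untreated dko arrays, against 7.41, 7.74, 7.16, 8.56 and 8.38 on loaded and 5.98, 6.23, 5.77, 6.71 and 6.64 on untreated wt arrays. The effect was -0.55 in dko cells (SE 0.29, adjusted p = 0.68) and 1.59 in wt cells (SE 0.26, adjusted p = 6.27e-05), and the difference was -2.14 (SE 0.39, adjusted p = 0.0136). The call was lost without loaded dko replicate 6 (-1.98) or untreated dko replicate 6 (-2.06).

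Scd2 had a called crystal effect in both genotypes, of opposite sign. It fell to 5.65, 5.78, 5.84 and 5.68 on the loaded dko arrays, against 7.14, 7.13, 7.31 and 7.35 on the untreated dko arrays. It rose to 6.87, 6.99, 6.56, 6.47 and 6.09 on the loaded wt arrays, against 5.37, 5.79, 5.40, 5.43 and 4.85 on the untreated wt arrays. Neither pair of groups overlapped. The effect was -1.49 in dko cells (SE 0.33, adjusted p = 0.0242), 2.81-fold lower, and 1.23 in wt cells (SE 0.30, adjusted p = 0.00403), 2.34-fold higher. The difference was -2.72 (SE 0.44, adjusted p = 0.00368). Untreated dko cells exceeded untreated wt cells by 1.86 (adjusted p = 0.00366), a called difference (0.209% of all genes were called), while loaded dko and wt cells differed by -0.85 (adjusted p = 0.21). Of the 70 genes that were called in wt cells and had the opposite sign in dko cells, Scd2 was the 1 that was also called in dko.

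LOC100043671, placed on chromosome 11 by the array table and given no role here, followed Scd2 at a smaller size. Its effect was -0.86 in dko cells (SE 0.16, adjusted p = 0.00461) and 0.40 in wt cells (SE 0.14, adjusted p = 0.0659, not called), and the difference was -1.26 (SE 0.22, adjusted p = 0.00759). Its loaded dko arrays ran from 8.29 to 8.85 and the untreated ones from 9.28 to 9.58, against 9.001 to 9.14 on loaded and 8.49 to 8.83 on untreated wt arrays. None of the 4 ranges overlapped, apart from loaded dko with untreated wt.

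Which side of the difference moved was thus not the same in the 6 genes. Abcg1, Eepd1 and Gramd1b rose in wt cells and had effects of 0.18 to 0.40 in dko cells that were not called. Scd2 and LOC100043671 fell in dko cells, and Scd2 also rose in wt cells. Scd1 rose in wt cells, and its dko arrays were lower when loaded without a call. In loaded cells the dko minus wt difference, called in 0.375% of all genes, was called for Abcg1 (-1.79, adjusted p = 6.99e-04), Eepd1 (-1.14, adjusted p = 0.0157) and Gramd1b (-1.41, adjusted p = 4.21e-05), and in untreated cells for Scd2 and LOC100043671 (0.79, adjusted p = 0.0177).

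The differences of these 6 genes were found in each set of arrays with the same sign. With wt replicates 4 and 5 alone, which share slides with dko, they were -2.61 for Abcg1, -1.33 for Eepd1, -1.04 for Gramd1b, -2.35 for Scd1, -2.63 for Scd2 and -1.44 for LOC100043671. None was called in that fit (unadjusted p 5.20e-05 to 0.00123). Within the arrays without Xist signal they were -2.46, -1.22, -1.11, -2.42, -2.64 and -1.53 in the same order of genes, with calls for Abcg1, Scd1, Scd2 and LOC100043671. Within the arrays with Xist signal they were -3.08, -2.74, -1.50, -1.93, -2.76 and -1.04, and all 6 were called. With median scaling in place of quantile normalization, all 6 kept their sign and none was called. The same held in the deposited log2 values, which are not normalized.

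Srebf1, the gene of SREBP1 and the link from LXR to fatty acid synthesis, came next by p. Its level was 6.15, 6.20, 6.39 and 6.43 on loaded and 6.87, 6.88, 6.55 and 6.60 on untreated dko arrays, against 6.71, 6.61, 7.19, 6.86 and 6.36 on loaded and 5.49, 6.18, 5.67, 6.27 and 6.27 on untreated wt arrays. The loaded arrays lay above the untreated ones in wt and below them in dko. The effect was -0.43 in dko cells (SE 0.18, adjusted p = 0.484) and 0.77 in wt cells (SE 0.16, adjusted p = 0.00126), and the difference of -1.20 (SE 0.25, adjusted p = 0.0539) was not called. It was -0.77 against wt replicates 4 and 5 and -1.49 against wt replicates 1 to 3.

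Abca1, the transporter that loads cholesterol onto apolipoproteins, was dim. In dko cells 3 of 4 arrays were above background in either state, and in wt cells all 5 loaded and none of the 5 untreated arrays were. The loaded wt level was at least 1.46-fold higher than the untreated one (means 5.22 and 4.36, adjusted p = 2.92e-04), the bound being the mean over arrays of the lowest signal above background. The dko effect was -0.11 (SE 0.18, adjusted p = 0.999), and the difference was -0.96 (SE 0.24, adjusted p = 0.315, not called), which rests on untreated wt levels that were not above background.

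Promoter windows of 300 bases, from 250 before to 50 after a gene's start, were read from RefSeq (GRCm38.p6) for the LXR lists, and 31 of 40 listed genes had one. Of the 6 called genes 1, Eepd1, had a window in this table. LXR with its partner is known to bind a direct repeat of AGGTCA with 4 bases between. The exact repeat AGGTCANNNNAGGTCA, searched on both strands, was in 0.0152% of all 32851 windows and in none of the 41 windows of listed genes. A looser spelling, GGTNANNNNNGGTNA, was chosen after the Abca1 and Srebf1 windows had been seen. It was in 0.718% of all windows and in 4 of the 41, those of Abca1, Acsl3, Fasn and Srebf1. Those of Srebf1 (1 of 3 starts, chr11:60210422-60210721, minus strand) and Abca1 (chr4:53159846-53160145, minus strand) are shown because both genes rose in wt cells, with the matched 15 bases in capitals. The Eepd1 window (chr9:25481347-25481646, plus strand) is shown as that of the called gene and holds no match. A match is a run of letters and not a measured binding site.
Srebf1: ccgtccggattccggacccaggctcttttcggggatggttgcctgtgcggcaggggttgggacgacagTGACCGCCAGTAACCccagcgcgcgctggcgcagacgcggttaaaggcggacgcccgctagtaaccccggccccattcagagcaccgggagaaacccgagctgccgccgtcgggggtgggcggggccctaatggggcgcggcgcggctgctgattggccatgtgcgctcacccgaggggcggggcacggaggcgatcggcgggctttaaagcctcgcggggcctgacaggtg
Abca1: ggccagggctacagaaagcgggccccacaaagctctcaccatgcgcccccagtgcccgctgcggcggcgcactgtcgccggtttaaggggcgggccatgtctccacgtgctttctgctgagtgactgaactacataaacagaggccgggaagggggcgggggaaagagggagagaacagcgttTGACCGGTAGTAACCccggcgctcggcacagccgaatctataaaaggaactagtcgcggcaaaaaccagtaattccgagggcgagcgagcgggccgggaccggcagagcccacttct
Eepd1: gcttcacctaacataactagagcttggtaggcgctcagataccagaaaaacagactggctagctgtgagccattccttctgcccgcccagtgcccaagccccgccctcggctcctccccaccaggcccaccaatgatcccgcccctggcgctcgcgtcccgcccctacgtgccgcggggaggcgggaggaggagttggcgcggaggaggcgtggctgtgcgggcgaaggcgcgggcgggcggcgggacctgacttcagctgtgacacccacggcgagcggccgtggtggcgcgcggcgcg

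The LXR list of export, lipoprotein and sterol transfer genes held 10 measured members. Of these 3 were called in the difference, Abcg1, Eepd1 and Gramd1b, and all 10 differences were negative, with a median of -0.53, against 0.002 over all genes, of which 49.6% were negative. In dko cells none rose or fell (0.236% of all genes rose), and in wt cells 4 of the 10 rose (6.89% of all genes rose), the called 3 and Abca1. With replicates 4 to 9 alone none rose in dko and 3 in wt cells. Outside these 4 the differences of Apoe (-0.06), Apoc1 (-0.02), Apoc2 (-0.27), Pltp (-0.26) and Lpl (-0.05) were small beside their SE of 0.17 to 0.78, and none was called. Apoe carries lipid out of macrophages and Lpl splits triglycerides, and neither crystal effect was called in either genotype. Arl4c, a small GTPase linked to cholesterol export, had an effect of -0.09 in dko and 0.69 in wt cells, with a difference of -0.79 (adjusted p = 1).

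The lipogenic list held 12 measured members, of which Scd1 and Scd2 were called in the difference and 8 differences were negative, with a median of -0.37. Members of this list moved in different directions in wt cells, where Srebf1, Scd1 and Scd2 rose and Acly, Elovl6 and Fads1 fell (6.89% of all genes rose and 7.12% fell). In dko cells Scd2 and Acsl3 fell (0.181% of all genes fell). Acsl3, which activates long-chain fatty acids, had an effect of -1.05 in dko cells (adjusted p = 0.00143) and -0.24 in wt cells (adjusted p = 0.4), with a difference of -0.82 (adjusted p = 0.521). Lpcat3, an LXR target that places polyunsaturated chains in phospholipids, had -0.60 in dko and 0.18 in wt cells, with a difference of -0.78 (adjusted p = 0.403). Fasn, the fatty acid synthase, had a difference of -0.47 (adjusted p = 0.988), and Fads2 of -0.28 and Elovl5 of -0.15 were not called. The differences of Acly, Elovl6, Fads1 and Mlxipl were positive, at 0.07, 0.15, 0.22 and 0.64, and not called.

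The remaining LXR list, of targets outside these roles and the receptors, had 9 measured members and no call in the difference, with a median of -0.22. Mylip, which marks the LDL receptor for degradation, was in wt cells above background on all 5 loaded and none of the untreated arrays, at least 1.29-fold higher (means 5.04 and 4.44, adjusted p = 0.00978). In dko cells Mylip was above background on 1 loaded and no untreated array, and the difference was -0.50 (adjusted p = 1). Mertk, a receptor for dying cells, had a difference of -0.64 (SE 0.45), and Plin2 of lipid droplets, Tgm2, Smpdl3a, Rxra and Rxrb lay between -0.25 and 0.18. Nr1h3 itself had a difference of -0.57 (SE 0.31) and Nr1h2 of -0.07 (SE 0.35), neither called.

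**Figure D2:**
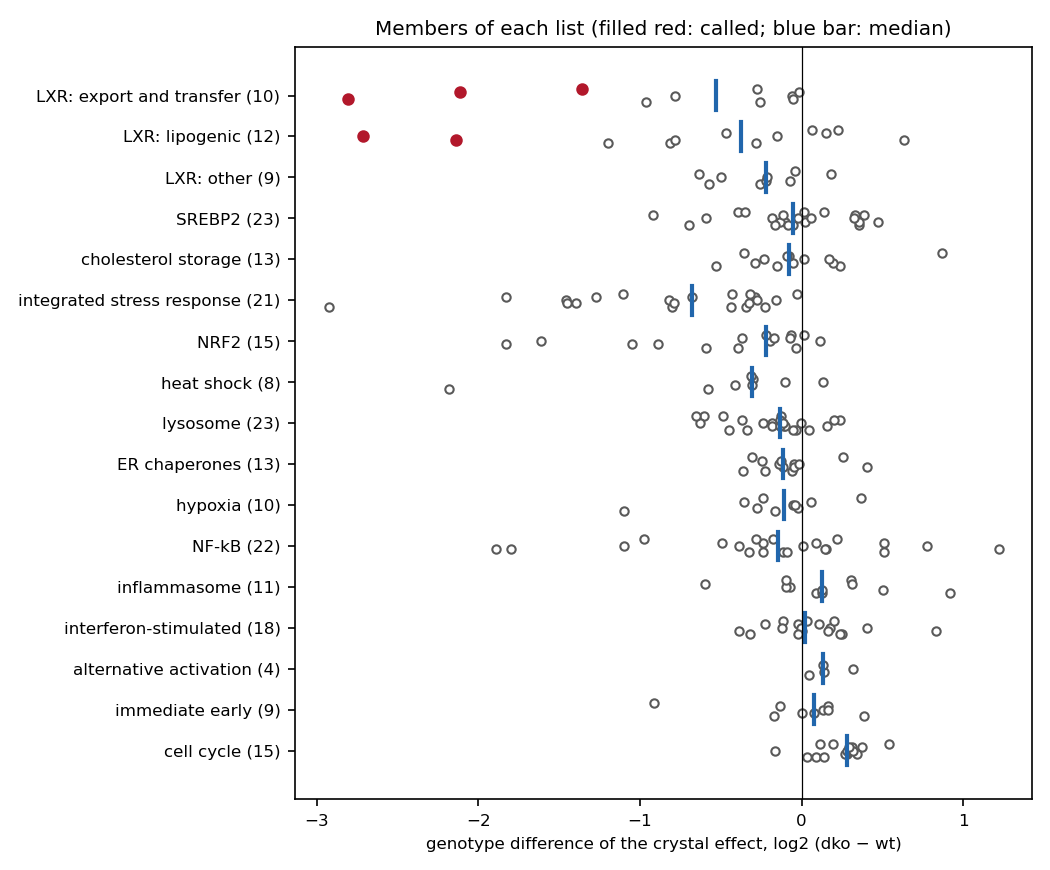
Genotype difference of the crystal effect (x axis, log2, dko minus wt) for the measured members of 17 lists, with the number measured in brackets. Filled red points are called genes, open points are not called, and the blue bar is the list median. The 5 red points lie in the export and lipogenic LXR lists, at -1.36 to -2.81, and all 21 stress response members lie left of 0 without a call.

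The SREBP2 list of cholesterol synthesis and uptake fell in both genotypes. Of 23 measured members 13 fell in dko cells (0.181% of all genes fell) and 13 fell in wt cells (7.12% of all genes fell), 11 of them in both. With replicates 4 to 9 alone 13 fell in dko and 2 in wt cells, and in arrays without Xist signal 15 and 10. The median effect was -1.06 in dko and -0.81 in wt cells, and the median difference was -0.05, with no member called in the difference and 13 of 23 negative. Stard4, which moves cholesterol between membranes, was at 7.70, 7.78, 7.11 and 7.31 on loaded and 8.87, 9.32, 9.69 and 9.19 on untreated dko arrays, against 6.27, 6.46, 5.82, 7.41 and 7.03 on loaded and 8.68, 8.56, 8.53, 8.95 and 8.85 on untreated wt arrays. The loaded arrays lay below the untreated ones in both genotypes. Its effect was -1.79 in dko (adjusted p = 4.08e-04) and -2.11 in wt cells (adjusted p = 3.40e-07), with a difference of 0.32 (SE 0.37, adjusted p = 1). Cyp51, the lanosterol demethylase, had effects of -1.71 and -2.09 in dko and wt cells, with a difference of 0.39 (SE 0.35). The differences of Stard4 and Cyp51 turned negative, to -0.11 and -0.10, against wt replicates 4 and 5 alone. Mvd and Lss, also of the pathway, fell in dko cells (-1.13 and -1.18) and were not called in wt cells (-0.21 and -0.59), and their differences of -0.92 and -0.59 were not called.

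**Figure D3:**
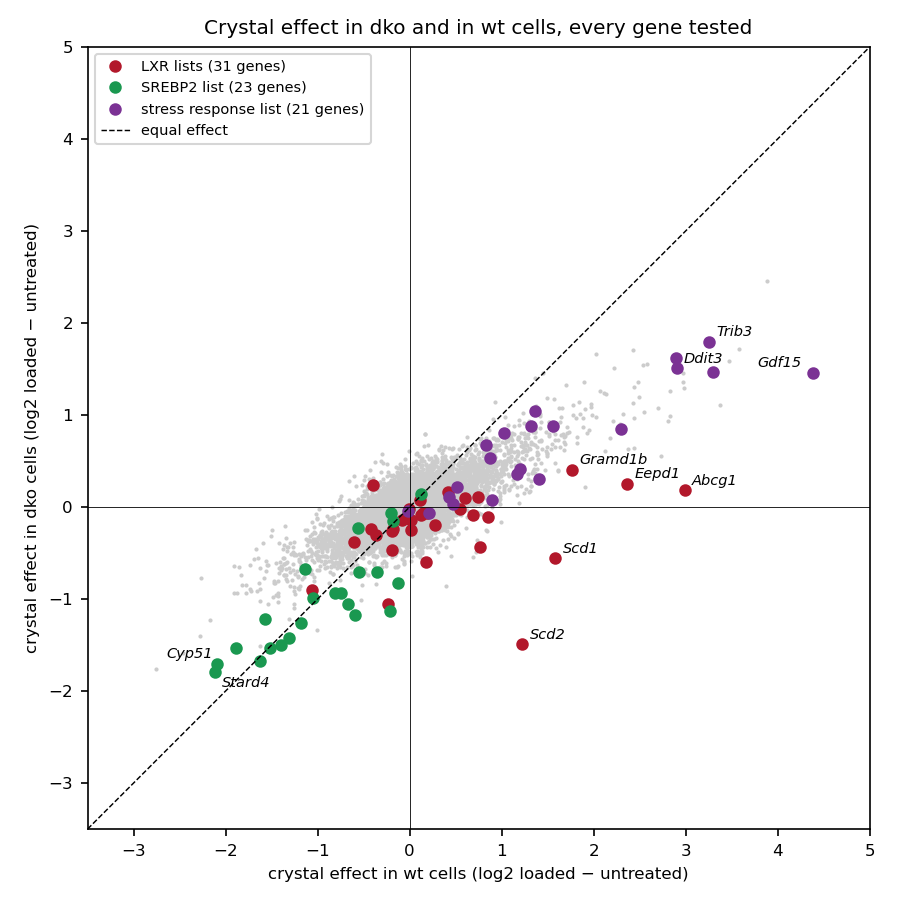
Crystal effect of each of the 14388 genes in dko cells (y axis, log2 loaded minus untreated) against that in wt cells (x axis). Coloured points are members of the LXR, SREBP2 and stress response lists, and the dashed line marks equal effects. Of the 23 SREBP2 genes 22 are below 0 in either arm, and of the 21 stress response genes 19 are above 0 in dko and 20 in wt cells, with all 21 below the line. Scd2 lies in the quadrant where wt is positive and dko negative.

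In the integrated stress response the factors ATF4 and CHOP switch on genes of amino acid supply and redox balance. The list had a positive median effect in both genotypes. Of 21 measured members 2, Ddit3 and Trib3, rose in dko cells (0.236% of all genes rose) and 17 rose in wt cells (6.89%). This contrast of counts was not kept in the arrays that share slides: with replicates 4 to 9 alone 8 rose in dko and 4 in wt cells (4 and 2 arrays a group), and in arrays without Xist signal 11 and 14. The median effect was 0.67 in dko and 1.20 in wt cells. All 21 differences were negative, with a median of -0.68, and none was called. Ddit3, which encodes CHOP, was at 8.89, 8.89, 8.81 and 9.34 on loaded and 7.57, 7.38, 7.05 and 7.90 on untreated dko arrays. In wt cells it was at 10.76, 9.90, 10.51, 9.45 and 9.50 on loaded and 6.94, 7.19, 7.04, 7.30 and 7.15 on untreated arrays. Both genotypes separated loaded from untreated, with an effect of 1.51 in dko (SE 0.21, adjusted p = 2.02e-04) and 2.90 in wt cells (SE 0.19, adjusted p = 2.74e-12). The difference was -1.40 (SE 0.29, adjusted p = 0.0539), and the call was reached without any 1 of 4 arrays, loaded wt replicates 4 and 5, loaded dko replicate 9 and untreated dko replicate 8 (-1.54 to -1.52).

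These differences moved with the set of wt arrays. The Ddit3 difference was -0.74 against wt replicates 4 and 5 and -1.83 against wt replicates 1 to 3. The Trib3 difference, of a kinase-like protein induced by CHOP, was -1.46 in all arrays (adjusted p = 0.521), -0.98 against replicates 4 and 5 and -1.78 against replicates 1 to 3. Gdf15, a secreted stress signal with the largest called wt effect of any gene (4.38, SE 0.57), had 1.46 in dko cells (SE 0.63, adjusted p = 0.516). Its difference of -2.93 (SE 0.85, adjusted p = 0.521) was -1.01 against replicates 4 and 5 and -4.20 against replicates 1 to 3. The median over the list was -0.24 against replicates 4 and 5 and -0.99 against replicates 1 to 3. The effect itself had a list median of 0.67 in dko cells, against 1.47 in wt replicates 1 to 3 and 0.85 in wt replicates 4 and 5. For the LXR export list the corresponding medians of the difference were -0.50 and -0.62.

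**Figure D4:**
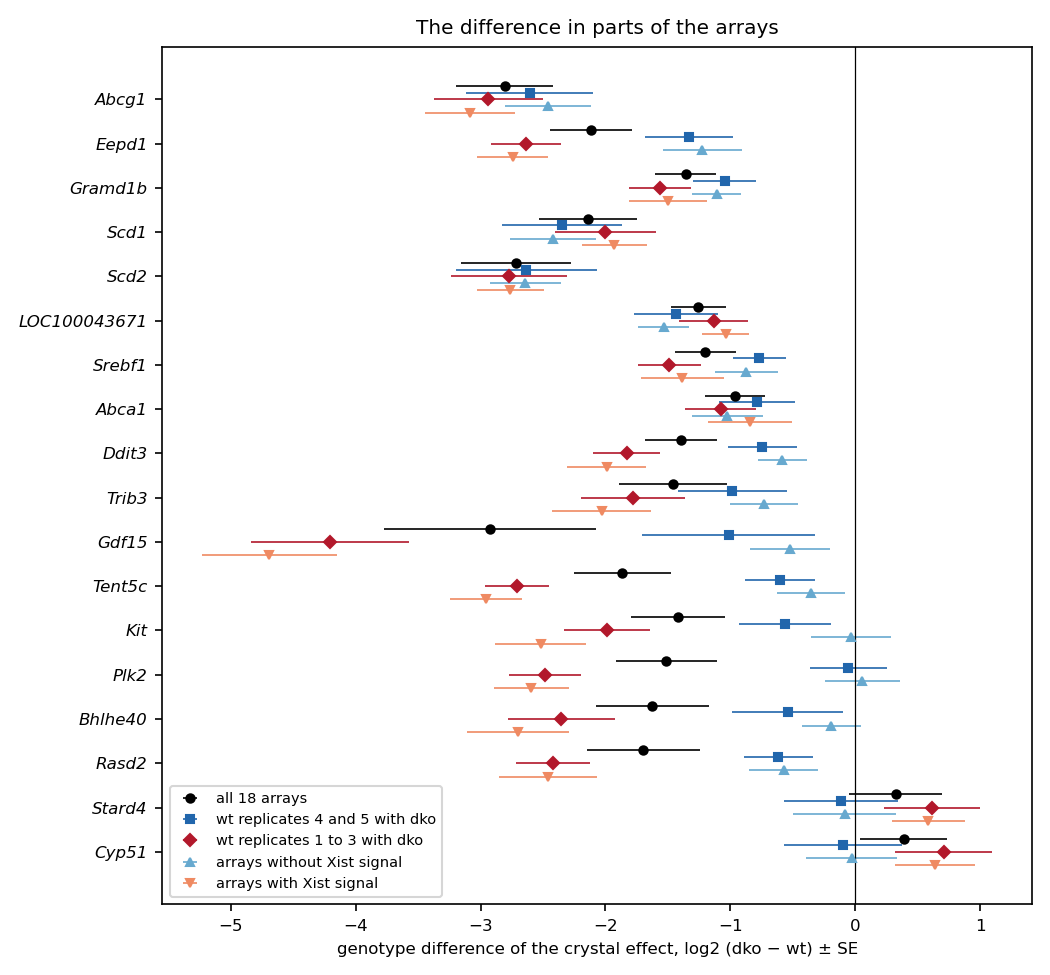
Genotype difference of the crystal effect (x axis, log2, dko minus wt, ± SE) for 18 genes in all 18 arrays, against wt replicates 4 and 5, against wt replicates 1 to 3, and within arrays without or with Xist signal. The 6 called genes, chosen on these same 18 arrays, lie left of 0 in every set, from -1.04 to -3.08. Kit, Plk2 and Bhlhe40 lie within 0.6 of 0 against wt replicates 4 and 5 and between -1.99 and -2.48 against replicates 1 to 3.

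Other stress and lysosome lists had no call in the difference and smaller medians. Beside the counts below, 0.236% of all genes rose in dko and 6.89% in wt cells, so a count of none in dko is usual for a short list. Of 15 NRF2 genes of the oxidative stress response none rose in dko and 7 in wt cells, with medians of 0.31 in dko and 0.68 in wt cells and a median difference of -0.22. Gsta3, a glutathione transferase, had a difference of -1.61 (adjusted p = 0.522), Osgin1 of -0.89 (adjusted p = 0.648) and Hmox1, the haem oxygenase, of -1.05 (adjusted p = 1). With replicates 4 to 9 alone 1 NRF2 gene rose in each genotype, and in arrays without Xist signal 3 in each. The NRF2 median was 0.01 against wt replicates 4 and 5 and -0.67 against replicates 1 to 3. Of 8 heat shock genes none rose in dko and 3 in wt cells, a wt count that was 0 with replicates 4 to 9 alone, and Hspa1a had the largest difference of the list, -2.18 (SE 0.66, adjusted p = 0.521). Of 23 lysosomal genes none rose in dko and 11 in wt cells, with a median difference of -0.13. With replicates 4 to 9 alone 2 of them rose in dko and none in wt cells, and in arrays without Xist signal 4 rose in each. With median scaling none rose in dko and 5 in wt cells, and in the deposited log2 values, which are not normalized, none and 1. The proton pump subunits Atp6v1h (-0.63) and Atp6v0d1 (-0.37) had the smallest p of the list. Endoplasmic reticulum chaperones, 13 measured, had no call in either genotype and a median difference of -0.12, with Hspa5 at -0.36 (SE 0.45).

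Inflammatory lists showed no difference past the threshold. Beside the counts below, 0.236% of all genes rose and 0.181% fell in dko cells, and 6.89% rose and 7.12% fell in wt cells. Of 22 NF-kB genes none rose in dko cells and 1, Acod1 of itaconate synthesis, rose in wt cells, and the median difference was -0.14. Acod1 had an effect of 1.58 in dko (SE 0.84) and 3.47 in wt cells (SE 0.75), with a difference of -1.89 whose SE was 1.12 and which was not called. It was -0.97 against wt replicates 4 and 5 and -2.51 against replicates 1 to 3. Cxcl2 and Il1a had -1.80 (SE 1.58) and -1.10 (SE 1.02). Of 11 inflammasome genes 3 fell in wt cells, Txnip, Il18 and Nlrc4, with differences of 0.92, 0.30 and 0.31 that were not called. No interferon-stimulated gene was called in either crystal effect, and their median difference was 0.02 over 18 genes. In untreated cells Ifit3 (-2.04, adjusted p = 0.0186) and Oasl2 (-1.56, adjusted p = 0.0271) of this list were lower in dko than in wt cells. Of 15 cell cycle genes none fell in dko and 7 in wt cells. The wt count of these genes was 0 with median scaling, in the deposited log2 values without normalization and with replicates 4 to 9 alone. Of their differences 14 of 15 were positive with a median of 0.28, and the smallest p belonged to Cdk1 (0.37, adjusted p = 1). The hypoxia, alternative activation, immediate early and cholesterol storage lists had median differences of -0.11, 0.13, 0.08 and -0.08 with none called, and Vegfa had -1.10 (adjusted p = 0.873), Egr2 -0.92, Ch25h 0.87 and Scarb1 -0.36.

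After the called genes, the 15 genes with the next smallest p and a difference of at least 1 in size were not called (adjusted p 0.0539 to 0.407). All 15 were called in wt cells and 3 in dko cells, and 13 of the 15 differences were negative. Beside Srebf1 and Ddit3 they included Tent5c (-1.86), Gngt2 (-1.21), Rgl1 (-1.48), Slc3a2 (-1.11), Rasd2 (-1.70), Kit (-1.42), Plk2 (-1.51), LOC100045284 (-1.22), Eno2 (-1.12), Rbpms (-1.03) and Bhlhe40 (-1.63), and Rps6ka5 (1.09) among the positive ones. Tent5c, a poly(A) polymerase, was at 8.13, 8.48, 8.14 and 8.13 on loaded and 6.35, 6.41, 6.28 and 6.99 on untreated dko arrays, against 10.50, 10.00, 10.38, 8.72 and 8.75 on loaded and 5.89, 5.95, 5.78, 6.48 and 6.35 on untreated wt arrays. The wt arrays 4 and 5 lay nearer to the dko arrays than wt arrays 1 to 3 did in both states. Its difference was -0.60 against wt replicates 4 and 5 and -2.71 against replicates 1 to 3. Plk2, a kinase of stressed cells, had -0.05 and -2.48 in the same 2 sets, Rasd2 had -0.61 and -2.42, and Rgl1 had -0.60 and -2.06. Slc3a2, a subunit of amino acid transporters, had -1.11 in all arrays and is also a member of the stress response list.

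The 10 genes with the largest mean effect among those called in both genotypes had differences of -1.86 to 0.39, none of them called. They were Kit, Tent5c, Trib3, Ddit3, Slamf8, Gask1b, Stard4, Cyp51, Mcoln3 and Ptgir. Kit, the receptor of stem cell factor, was at 7.30, 7.57, 7.04 and 6.42 on loaded dko arrays and above background on 1 of 4 untreated ones, against 8.75, 8.23, 9.23, 7.43 and 7.98 on loaded wt arrays and 2 of 5 untreated ones above background. Its effect was 2.46 in dko (SE 0.28, adjusted p = 7.49e-06) and 3.88 in wt cells (SE 0.25, adjusted p = 2.74e-12). Kit is also a marker of mast cells, and of that list of 8 markers 3 passed the filter on dim probes, Kit, Hbb-b1 and Fcer1a, with Cpa3, Mcpt4 and Tpsb2 not among them. Ptgir, the prostacyclin receptor, had 1.67 in dko and 2.02 in wt cells, with a difference of -0.35 (SE 0.40), and Slamf8 had 1.70 and 2.43. Among the 10 largest called wt effects, Abcg1 was the 1 called in the difference. Plpp3 (-2.27, SE 0.91), Slc7a11 (-1.83, SE 0.96), Cd274 (-1.69, SE 0.61) and Gprc5b (-1.52, SE 0.56), with dko effects of 1.10 to 1.47, were not called. Against wt replicates 4 and 5 these differences were -0.98, -0.56, -0.77 and -0.55 in the same order of genes, and against wt replicates 1 to 3 they were -3.13, -2.67, -2.30 and -2.16.

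Over all genes, 60 were called in the crystal effect in dko cells (0.417%) and 2015 in wt cells (14%), from 4 against 4 and 5 against 5 arrays. The dko calls were 34 that rose and 26 that fell, and the wt calls 991 and 1024. The 55 genes called in both were 91.7% of the dko calls and 2.73% of the wt calls. The 5 genes called in dko alone were Acsl3, LOC100043671, Lss, Mvd and Slc1a2, a glutamate transporter (0.61 in dko and -0.002 in wt cells, above background on the 4 loaded dko arrays alone and there at least 1.38-fold higher than in untreated dko cells), named after their values were seen. Of the 2015 genes called in wt cells, 1945 (96.5%) had the same sign in dko cells, against 69.1% of all genes. The median ratio of the dko to the wt effect was 0.458 over the genes called in wt cells and 0.754 over the genes called in dko cells. Genes called in a genotype were chosen for a large effect there, so neither ratio is independent of that choice. The excess of wt over dko calls was not kept with all the arrays that share slides, replicates 4 to 9. With replicates 4 to 9 alone, with fewer wt than dko arrays in a group, 204 genes were called in dko and 77 in wt cells. In arrays without Xist signal the counts were 420 in dko and 510 in wt cells, and in those with it 27 and 2777. With wt replicates 1 to 3 and dko they were 141 and 2162.

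Over the 60 genes called in dko cells, the median ratio to the dko effect was 0.942 for wt replicates 4 and 5 and 1.44 for wt replicates 1 to 3. The count of genes called in the genotype difference was 0 against wt replicates 4 and 5 (252 at an unadjusted p under 0.05) and 120 against wt replicates 1 to 3, of which 84 were lower and 36 higher in dko. Within the arrays without Xist signal it was 4, and within those with it 166.

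The 18 arrays with CD gave a second measurement of the difference on other arrays, after a further treatment. There 7 genes were called (0.0487%; 501 at an unadjusted p under 0.05), all lower in dko. They included 5 of the 6 called without CD, Abcg1, Eepd1, Gramd1b, Scd2 and LOC100043671, and also Lpcat3 (-1.10, SE 0.22, adjusted p = 0.0294) and Ap5s1 (-1.80, SE 0.35, adjusted p = 0.0294). Scd1 had -1.77 (SE 0.39, adjusted p = 0.107), and Srebf1 had -1.18 (SE 0.25, adjusted p = 0.0642) beside -1.20 without CD.

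The Abcg1 difference with CD was -5.36 (SE 0.39, adjusted p = 7.85e-11), beside -2.81 without. Its level was 7.58, 8.61, 7.56 and 8.41 in loaded dko cells with CD and 8.88, 7.86, 8.90 and 7.42 in unloaded dko cells with CD. In wt cells with CD it was 10.25, 10.85, 11.05, 10.04 and 10.13 when loaded and 5.32, 5.18, 5.93, 5.63 and 4.60 when unloaded, where 4 of 5 arrays were above background. The unloaded wt arrays with CD were all lower than those without, and so were the loaded dko arrays. Within dko cells with CD the 4 arrays with Xist signal were at 8.41 to 8.90 and the 4 without at 7.42 to 7.86, and the part of this in the difference was not tested. Eepd1 had -3.001 with CD (SE 0.33, adjusted p = 1.39e-06), Gramd1b -1.26 (SE 0.25, adjusted p = 0.0294), Scd2 -2.44 (SE 0.44, adjusted p = 0.0165) and LOC100043671 -1.43 (SE 0.22, adjusted p = 9.63e-04).

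**Figure D5:**
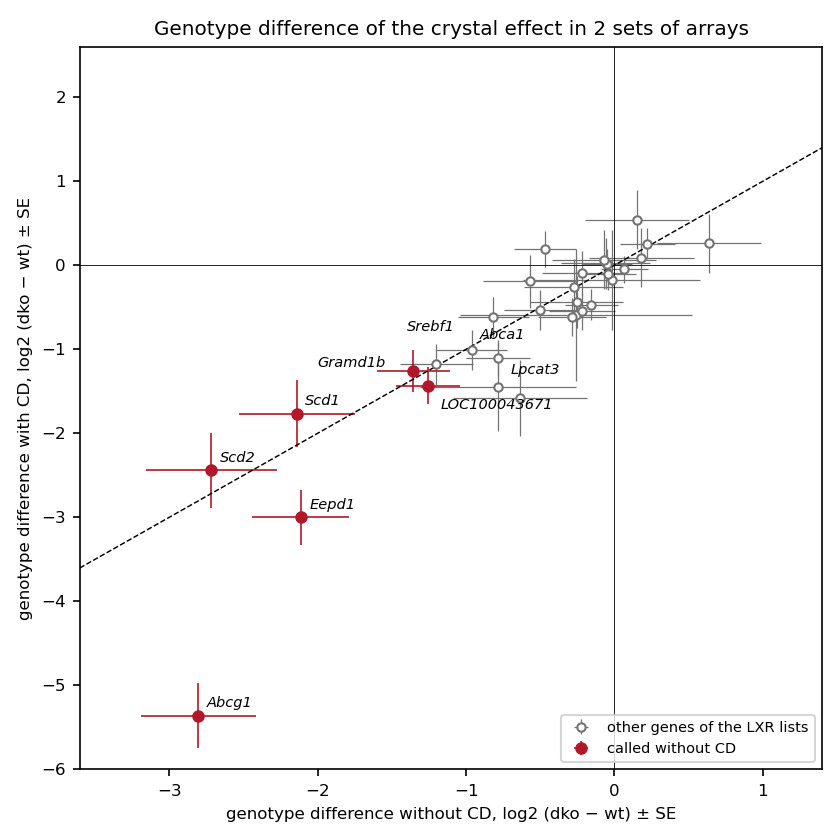
Genotype difference of the crystal effect with CD (y axis, log2, dko minus wt, ± SE) against that without CD (x axis) for the 31 measured genes of the LXR lists and LOC100043671. Filled red points were called without CD, open points were not, and the dashed line marks equal values. Gramd1b, Scd1, Scd2 and Srebf1 lie near the line, Abca1 rests on unloaded wt levels not above background in either set, and Abcg1, at -5.36 with CD, lies furthest below it.

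The stress response list had a median difference of -0.50 with CD, with 19 of 21 negative and none called, and Ddit3 had -0.67 (SE 0.29) beside -1.40 without CD. The SREBP2 list had a median difference of 0.24 with CD, with 22 of 23 positive and none called. In that arm 18 of its 23 members fell in dko cells (0.473% of all genes were called) and 21 fell in wt cells (7.58%), with median effects of -1.59 and -2.17. The LXR export list had a median difference of -0.80 with CD, and the lipogenic list one of -0.54.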

How the data were processed

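Expression was measured on Illumina bead arrays. The deposited table holds each probe's bead intensity, not normalized, and its detection p-value on all 36 arrays. A second deposited set of log2 values of the same arrays served as an alternative. It matched the log2 of the unnormalized intensities to within 5.57e-05. That alternative was therefore a fit without background correction or normalization. The submitters' processing notes name Partek. No genome build for the probes is named in the labels.

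Intensities were corrected with detection p-values and quantile normalized (neqc, offset 16, limma 3.58.1, R 4.3.3). Probes above background (detection p under 0.05) on at least 4 arrays were kept, 21126 probes, and the probe of highest mean stood for a gene, which left 14388 genes. One model with 8 group means over the 36 arrays (28 residual degrees of freedom) was fitted with lmFit and eBayes, and p-values were adjusted by Benjamini-Hochberg over all genes. The number of arrays limits the precision. Symbols were updated through RefSeq tables, and 2504 genes kept the file's name.

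The named genes were all called genes, the 15 next by p with a difference of at least 1, up to 5 of each pathway list and all of the LXR lists, the 10 largest effects called in both genotypes, the 10 largest in wt, and the receptors; some named by this rule are not reported here. The members and lists were chosen with earlier results of these data known. The fits were tested on simulated data with independent noise. There 56 of 100 genes with a true genotype difference of 1 in size (log2) were called, and 96 of 100 with 2. A further 11 unchanged genes were called. Many more genes were called in the simulation than the 6 in the data. The Benjamini-Hochberg cut-off is less strict where more genes pass, so these shares may be too high for the real test. A difference of 1 or more that was not called may thus have been missed. Alternatives covered normalization, filter, probe rule, slide, replicate block, array weights, the sets of arrays and each array left out.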

Additional observations from a re-analysis of the deposited data

Results flagged for a closer look

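The genotype difference of the crystal effect, tested as such, passed the threshold without CD for Abcg1 (-2.81), Eepd1 (-2.11), Scd2 (-2.72), LOC100043671 (-1.26), Gramd1b (-1.36) and Scd1 (-2.14). With CD it passed for Abcg1 (-5.36), Ap5s1 (-1.80), Eepd1 (-3.001), Gramd1b (-1.26), LOC100043671 (-1.43), Lpcat3 (-1.10) and Scd2 (-2.44). All values are log2, dko minus wt.

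In 5 of 56 groups of arrays tested, over 14 genes, 1 array stood apart from its group by Dixon's criterion, which chance alone does in about 1 in 20 groups. Loaded dko replicate 6 was the lowest of its group for Scd1 (6.44) and for Abca1 (4.40). Loaded wt replicate 3 was the lowest for LOC100043671 (9.001). Loaded dko replicate 9 was the highest for Ddit3 (9.34), and loaded dko replicate 7 the highest for Tent5c (8.48).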

How the results depend on the processing

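The 6 called genes stayed lower in dko in all 18 other alternatives and all 18 fits without 1 array. These fits reuse the arrays on which the genes were chosen. In the fits without 1 array, 4 to 6 of the genes were called. The order of counts below is the genotype difference, the dko effect, the wt effect and the difference with CD, against 6, 60, 2015 and 7 calls. Median scaling in place of quantile normalization, after the same background correction, gave 0, 10, 496 and 2. The deposited log2 values, without background correction or normalization, gave 0, 3, 129 and 1. At an unadjusted p under 0.05 these fits gave 261 and 34 genes for the genotype difference, in that order. Quantile normalization without background correction gave 7, 85, 2058 and 8. The cause of the lower counts was not tested. Replicates 4 to 9 alone gave 0, 204, 77 and 3, and wt replicates 1 to 3 with dko 120, 141, 2162 and 25. Of the alternatives chosen after the data were seen, replicates 4 to 9 alone with slide as a block gave 0, 157, 35 and 2. Also among those, Xist as a block gave 18, 276, 3044 and 18, arrays without Xist 4, 420, 510 and 12, and arrays with Xist 166, 27, 2777 and 41. Array weights gave 10, 343, 2066 and 9, and slide as a fixed block 5, 107, 1986 and 5. The mean of all probes gave 11 for the genotype difference, and with CD no filter gave 3 and the 18 arrays alone 2.

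Loaded and untreated arrays of one number correlated in their deviations at 0.495, 0.249, -0.0226, 0.612 and 0.549 for wt numbers 1 to 5 and at -0.508 to 0.502 for dko, so that not every pair was above 0.1, while wt numbers 1, 4 and 5 correlated best with themselves. With the replicate block the counts were 8, 136, 2453 and 12, and with it as a random block 10, 126, 2383 and 12.

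Untreated and loaded dko minus wt gave 30 and 54 calls. They became 2 and 11 with median scaling, 1 and 5 with the deposited log2 values, and 96 and 130 with slide as a block. Array weights gave 311 and 125, and wt replicates 1 to 3 gave 733 and 797. The counts were 143 and 230 with Xist as a block, 125 and 148 without Xist, and 1839 and 2016 with Xist. Untreated was 62 in replicates 4 to 9, and loaded 83 in the 18 arrays alone.

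Without 1 array the counts were 4 to 11 for the genotype difference (11 without loaded wt replicate 5), 36 to 90 for dko (36 without loaded dko replicate 7 or untreated dko replicate 8), 1490 to 1993 for wt, 3 to 8 with CD (3 without loaded dko replicate 6, unloaded dko replicate 8 or loaded wt replicate 3 of the CD arrays), 8 to 73 untreated (8 without untreated dko replicate 6, 73 without untreated wt replicate 4) and 12 to 185 loaded (12 without loaded wt replicate 1, 185 without loaded wt replicate 4). Leaving out 1 array moved the untreated count by over 1.5 times in 8 fits and the loaded count in 8.

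The sign of the difference turned in replicates 4 to 9, the same with slide as a block, and arrays without Xist for Slamf8 (0.16, 0.10, 0.20), Stard4 (-0.11, -0.61, -0.085), Cyp51 (-0.10, -0.48, -0.027) and Ptgir (0.035, 0.024, 0.027). It turned in the first and last of these for Mcoln3 (0.11, 0.23) and in the last for Plk2 (0.057) and Gask1b (0.025).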
